A study of Mus musculus with 8 samples.

Results

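Disease-associated microglia (DAM) genes are a group of transcripts by which activated microglia are recognised, and 10 of them were followed here in cultures of mouse astrocytes: Spp1, Gpnmb, Itgax, Lpl, Cst7, Clec7a, Trem2, Tyrobp, Lgals3 and Cd63. They were taken by gene symbol, 10 of the 23420 gene IDs measured, and the list was chosen with earlier results of these data known. Of the 10, 9 reached the minimum level for testing, at least 1 TPM in at least 2 libraries, and Itgax did not. TPM is the abundance of a transcript per unit of length, scaled to the same total in every library. The strongest pattern across these genes was a crossing of the cultures over time, with Spp1, Trem2, Tyrobp and Clec7a higher in MGS than in conventional culture at day 5 and lower at day 32.

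The RNA came from astrocytes of unstated strain and age, kept either in conventional culture (CV) or in a culture that the labels name MGS without spelling out the letters. The sample descriptions use the word soft for MGS and hard for CV. Both cultures were sampled at days 5 and 32, which gives 4 groups of 2 libraries, and no allele or agent is named for any of them. The labels do not say that the libraries of a group are separate cultures, and the replicate spread behind every p-value may therefore be technical. The libraries held 2.15 to 4.69 gigabases of aligned sequence, less in CV than in MGS at both days, and the SD of the log2 difference between replicates ran from 0.191 in MGS at day 5 to 0.465 in CV at day 32. In that last group the second replicate differed from the first by a median of -0.15 on the log2 scale in the shortest of 8 length classes of transcripts and 0.63 in the longest.

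The cultures were not purely astrocytic in their RNA. All 9 astrocyte markers reached 1 TPM in every group, but their summed level was 16910 to 17103 TPM in MGS at day 5, 3499 to 3692 in CV at day 5, 13811 to 13836 in MGS at day 32 and 1473 to 1890 in CV at day 32. A list of 14 pan-myeloid genes, carried by microglia and macrophages alike, summed to 434 to 435 TPM in MGS at day 5, 21.0 to 22.8 in CV at day 5, 726 to 738 in MGS at day 32 and 7194 to 7446 in CV at day 32. In total RNA of such a culture, fewer cells of a type and less RNA per cell cannot be told apart, and this holds for every level given for the DAM genes.

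Microglia, the resident macrophages of the brain, pass from a homeostatic to a disease-associated state around amyloid plaques, dying neurons and damaged myelin. In mice the first step of that change lowers the homeostatic genes and raises Tyrobp and others, and the later step, with Spp1, Itgax, Lpl, Cst7, Clec7a and Gpnmb, depends on the receptor TREM2. TREM2 binds lipids and lipoproteins at the cell surface and signals through the adaptor DAP12, the product of Tyrobp. Several of the genes are not restricted to microglia: Cd63, Lgals3, Gpnmb, Lpl and Spp1 are also transcribed by other cell types, including reactive astrocytes for some of them.

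Of the 10 genes, 8 have a promoter in the RefSeq table of build GRCm38.p6, 250 bases before to 50 after the start site; Tyrobp and Lpl are not shown. Myeloid promoters are known for sites of PU.1, the product of Spi1, so the core GAGGAA was searched on both strands (TTCCTC on the other). It was found in 4 of the 8 genes, Spp1, Clec7a, Trem2 and Cd63, and in 28.3% of all 32851 promoters of that table. The count is of genes with a match in any of their promoters, and the percentage is of promoters. These are unlike units, here and for the E-boxes below. A second Spp1 promoter, at chr5:104435942-104436241, held no match. The E-boxes CACGTG and CATGTG, read by the MiT/TFE factors of lysosomal genes, were found in 0 of the 8, against 7.15% and 14.2% of all promoters. A match is a description of letters in the window and was not tested for binding. The promoters of 3 genes with the core whose levels crossed between the cultures are printed with that of Gpnmb, which has no match, with the core in capitals and every other base in lower case, 5' to 3' on the strand of the gene.
Trem2, chr17:48346151-48346450, plus strand, core at -40 from the start site on the opposite strand: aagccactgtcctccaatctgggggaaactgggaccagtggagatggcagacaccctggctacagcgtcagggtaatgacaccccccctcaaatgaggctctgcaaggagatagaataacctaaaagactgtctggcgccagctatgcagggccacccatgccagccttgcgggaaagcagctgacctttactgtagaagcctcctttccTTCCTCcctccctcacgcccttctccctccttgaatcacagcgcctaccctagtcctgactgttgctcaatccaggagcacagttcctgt
Spp1, chr5:104434861-104435160, plus strand, core at -113: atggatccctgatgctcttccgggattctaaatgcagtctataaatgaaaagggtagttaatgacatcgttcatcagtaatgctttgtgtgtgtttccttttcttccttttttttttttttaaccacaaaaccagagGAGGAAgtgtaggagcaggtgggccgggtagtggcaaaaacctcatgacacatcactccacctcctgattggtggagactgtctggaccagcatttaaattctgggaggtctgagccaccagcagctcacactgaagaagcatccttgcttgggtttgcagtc
Clec7a, chr6:129472730-129473029, minus strand, core at -96: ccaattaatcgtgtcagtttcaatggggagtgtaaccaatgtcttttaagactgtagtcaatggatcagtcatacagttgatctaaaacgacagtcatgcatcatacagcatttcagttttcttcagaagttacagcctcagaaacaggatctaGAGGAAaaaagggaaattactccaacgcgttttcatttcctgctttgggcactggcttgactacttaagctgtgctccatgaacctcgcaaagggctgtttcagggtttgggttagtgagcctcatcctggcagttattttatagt
Gpnmb, chr6:49036268-49036567, plus strand: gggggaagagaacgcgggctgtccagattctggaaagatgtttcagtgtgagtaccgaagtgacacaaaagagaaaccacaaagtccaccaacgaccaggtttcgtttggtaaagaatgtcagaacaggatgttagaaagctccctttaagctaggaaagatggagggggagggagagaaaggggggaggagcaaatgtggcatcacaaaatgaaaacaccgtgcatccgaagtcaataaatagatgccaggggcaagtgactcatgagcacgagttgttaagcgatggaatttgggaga

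Trem2 (chr17:48346401-48352276 in mm10, plus strand) encodes the lipid-sensing receptor. It stood at 42.1 and 40.9 TPM in the MGS libraries of day 5, 3.28 and 2.03 in CV at day 5, 26.1 and 29.9 in MGS at day 32, and 422 and 325 in CV at day 32. The 4 groups did not overlap, and they ran from CV at day 5, the lowest, through MGS at day 32 and MGS at day 5 to CV at day 32. MGS exceeded CV at day 5 by 3.56 on the log2(TPM + 1) scale (standard error (SE) 0.20, adjusted p = 1.08e-05 by limma, two-sided, with Benjamini-Hochberg adjustment). At day 32 the difference was -3.68 (SE 0.20, adjusted p = 6.33e-06). From day 5 to day 32 Trem2 rose by 6.69 in CV (SE 0.20, adjusted p = 8.21e-07), a 141-fold increase of the mean TPM. In MGS the change was -0.55 (SE 0.20, adjusted p = 0.0604), which did not pass the threshold; without CV day 32 replicate 1 or replicate 2 it did (adjusted p = 0.026 and 0.0253), as it did without either CV day 5 library (0.0392 and 0.0382), although its size is the same in all of these. It also passed under median-of-ratios scaling, quantile normalization, FPKM and the length and GC correction (adjusted p 0.00481 to 0.0285).

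Tyrobp (chr7:30413788-30417579, plus strand) encodes DAP12, through which TREM2 and other receptors signal. Its levels were 63.4 and 67.2 TPM in MGS and 6.17 and 4.62 in CV at day 5, then 60.3 and 61.5 in MGS and 866 and 681 in CV at day 32. As for Trem2, CV held both the lowest and the highest libraries, and MGS lay between them at both days. MGS exceeded CV by 3.38 at day 5 (SE 0.16, adjusted p = 4.94e-06) and was below it at day 32, with a difference of -3.63 (SE 0.16, adjusted p = 2.73e-06). Tyrobp rose by 6.92 in CV (SE 0.16, adjusted p = 4.2e-07). In MGS the change was -0.10 (SE 0.16, adjusted p = 0.637; -0.42 under quantile normalization, adjusted p = 0.0459). The ratio of Tyrobp to Trem2 in TPM was 1.51 and 1.64 in MGS at day 5, 1.88 and 2.28 in CV at day 5, 2.31 and 2.05 in MGS at day 32 and 2.05 and 2.09 in CV at day 32, so the receptor and its adaptor kept within a narrow range of ratios while each of them spanned a 141-fold (Trem2) and a 143-fold (Tyrobp) difference of group means.

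Clec7a (chr6:129461591-129472777, minus strand) encodes dectin-1, a receptor for fungal beta-glucan that marks plaque-associated microglia. It was scarce in every group but 1: 2.08 and 1.88 TPM in MGS at day 5, 0.381 and 0.580 in CV at day 5, 0.681 and 0.494 in MGS at day 32, and 10.98 and 18.35 in CV at day 32. The libraries of MGS at day 32 and CV at day 5 overlapped, and the other 2 groups lay above both. The culture difference was 1.01 at day 5 (SE 0.23, adjusted p = 0.00862; 0.0576 without MGS day 5 replicate 1) and -3.26 at day 32 (SE 0.23, adjusted p = 1.89e-05). In CV Clec7a rose by 3.37 (adjusted p = 3.27e-05) from day 5 to day 32. In MGS it fell by 0.91 (adjusted p = 0.0173), a call lost when any 1 of the 4 MGS libraries was left out (adjusted p 0.0712 to 0.111).

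Spp1 (chr5:104435111-104441053, plus strand) encodes osteopontin, a secreted phosphoprotein that binds CD44 and integrins. It was the member with the widest swing in absolute level, at 1116 and 1169 TPM in MGS and 48.3 and 50.4 in CV at day 5, and at 265 and 242 in MGS and 3931 and 4896 in CV at day 32. Within a library its rank among all genes went from 3885 and 4024 in CV at day 5 to 19 and 11 in CV at day 32. In MGS it went the other way, from 111 and 110 at day 5 to 597 and 667 at day 32. The groups did not overlap and followed the same order as Trem2 and Tyrobp. The mean in MGS was 23.2-fold that in CV at day 5 (log2 difference 4.51, SE 0.12, adjusted p = 6.69e-07). At day 32 the mean in CV was 17.4-fold that in MGS (-4.11, SE 0.12, adjusted p = 8.52e-07). Spp1 rose by 6.45 in CV (SE 0.12, adjusted p = 2.38e-07) and fell by 2.17 in MGS (SE 0.12, adjusted p = 7.57e-05).

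Lpl (chr8:68880555-68906932, plus strand) encodes lipoprotein lipase, which frees fatty acids from triglyceride-rich lipoproteins. Its levels were 35.0 and 35.9 TPM in MGS at day 5, 24.2 and 30.7 in CV at day 5, 16.2 and 15.6 in MGS at day 32 and 113 and 144 in CV at day 32. The cultures were close at day 5, where the difference of 0.37 did not pass the test (SE 0.16, adjusted p = 0.102), although it did without CV day 32 replicate 1 or 2 (adjusted p = 0.0309 and 0.0306) and under the same 4 other scalings as for Trem2 (0.000402 to 0.00744). They were far apart at day 32, at -2.93 (SE 0.16, adjusted p = 7.21e-06). Lpl rose by 2.19 in CV (SE 0.16, adjusted p = 5.55e-05) and fell by 1.11 in MGS (SE 0.16, adjusted p = 0.00225).

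Cst7 (chr2:150570415-150578944, plus strand) encodes cystatin F, an inhibitor of lysosomal cysteine proteases such as cathepsin C. The files list it at 0 and 0.247 TPM in MGS at day 5, at 0 in both libraries of CV at day 5 and of MGS at day 32, and at 4.02 and 4.71 in CV at day 32. It passed the minimum level only through CV at day 32, so its calls there, lower in MGS at day 32 (adjusted p = 6.4e-06) and higher at day 32 within CV (adjusted p = 1.09e-05), carry no fold change and are not counted with those of the other genes. Its span also holds Mir3110. Itgax (chr7:128129568-128150657, plus strand), the integrin chain CD11c, was listed at 0.087 and 0.097 TPM in MGS at day 5, at 0 in CV at day 5 and in MGS at day 32, and at 0.054 and 0.156 in CV at day 32. These levels rest on a mean coverage of at most 0.206 reads per base and were not tested.

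Gpnmb (chr6:49036518-49058182, plus strand) encodes a lysosomal and surface glycoprotein induced by lysosomal stress. It stood at 179 and 182 TPM in MGS at day 5, 143 and 148 in CV at day 5, 76.7 and 74.8 in MGS at day 32 and 123 and 169 in CV at day 32. The 2 CV groups overlapped, MGS at day 5 was above both and MGS at day 32 below both. In MGS Gpnmb fell by 1.24 between the days (adjusted p = 0.000949), and at day 32 MGS was below CV, at -0.92 (SE 0.15, adjusted p = 0.00123). The culture difference at day 5, 0.31 (SE 0.15, adjusted p = 0.121), was not called, although it was without CV day 32 replicate 1 or 2 (0.00346 and 0.00333) and under the same 4 other scalings (0.00114 to 0.00872). The change within CV was -0.01 (adjusted p = 0.968) and turned with the CV libraries left out, to 0.22 without CV day 32 replicate 1 (adjusted p = 0.0403) and -0.24 without replicate 2 (adjusted p = 0.0216). With median-of-ratios scaling it was 0.39 (adjusted p = 0.0101) and with the length and GC correction 0.34 (0.00235).

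Lgals3 (chr14:47373860-47386167, plus strand) encodes galectin-3, a secreted and cytosolic lectin that binds TREM2 and damaged lysosomes. Unlike the receptor genes it was lower in MGS at both days, with 254 and 249 TPM against 442 and 414 in CV at day 5, and 204 and 199 against 616 and 486 at day 32. The difference was -0.76 at day 5 (SE 0.12, adjusted p = 0.00192) and -1.43 at day 32 (SE 0.12, adjusted p = 5.53e-05). Under median-of-ratios scaling the difference at day 5 was -0.57 and lost its call (adjusted p = 0.0774). The rise within CV, 0.35 (adjusted p = 0.0453), lost its call when any 1 of 7 of the 8 libraries was left out (adjusted p 0.0834 to 0.182) and with the length and GC correction (0.906), and the change within MGS was -0.32 (adjusted p = 0.0729; 0.0146 to 0.0388 under the 4 other scalings).

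Cd63 (chr10:128908919-128912818, plus strand), a tetraspanin of late endosomes and exosomes, is present in nearly all cells. It was the most abundant member outside CV at day 32 and the most even, at 1970 and 1991 TPM in MGS and 2022 and 1805 in CV at day 5, then 1565 and 1499 in MGS and 1964 and 1667 in CV at day 32. CV at day 5 overlapped both MGS at day 5 and CV at day 32, which did not overlap each other, and MGS at day 32 lay below all 3. The culture differences, 0.05 at day 5 (adjusted p = 0.73) and -0.24 at day 32 (SE 0.11, adjusted p = 0.098), were not called; the latter was called without CV day 32 replicate 2 (-0.36, adjusted p = 0.0121) and in FPKM, with the length and GC correction and with median-of-ratios scaling (0.00187 to 0.0207). Under quantile normalization the signs turned, to -0.17 at day 5 and 0.20 at day 32. Within MGS Cd63 fell by 0.37 (adjusted p = 0.0363), but the call did not hold when any 1 MGS library was left out (adjusted p 0.139 to 0.19), and under quantile normalization it was 0.13 with the opposite sign. Cd63 made up 73.5% and 75.2% of the summed TPM of the 10 genes in CV at day 5, and 19.9% and 24.4% in CV at day 32. Spp1 made up 1.79% and 2.05% of that sum in the former and 48.8% and 58.3% in the latter.

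**Figure D1:**
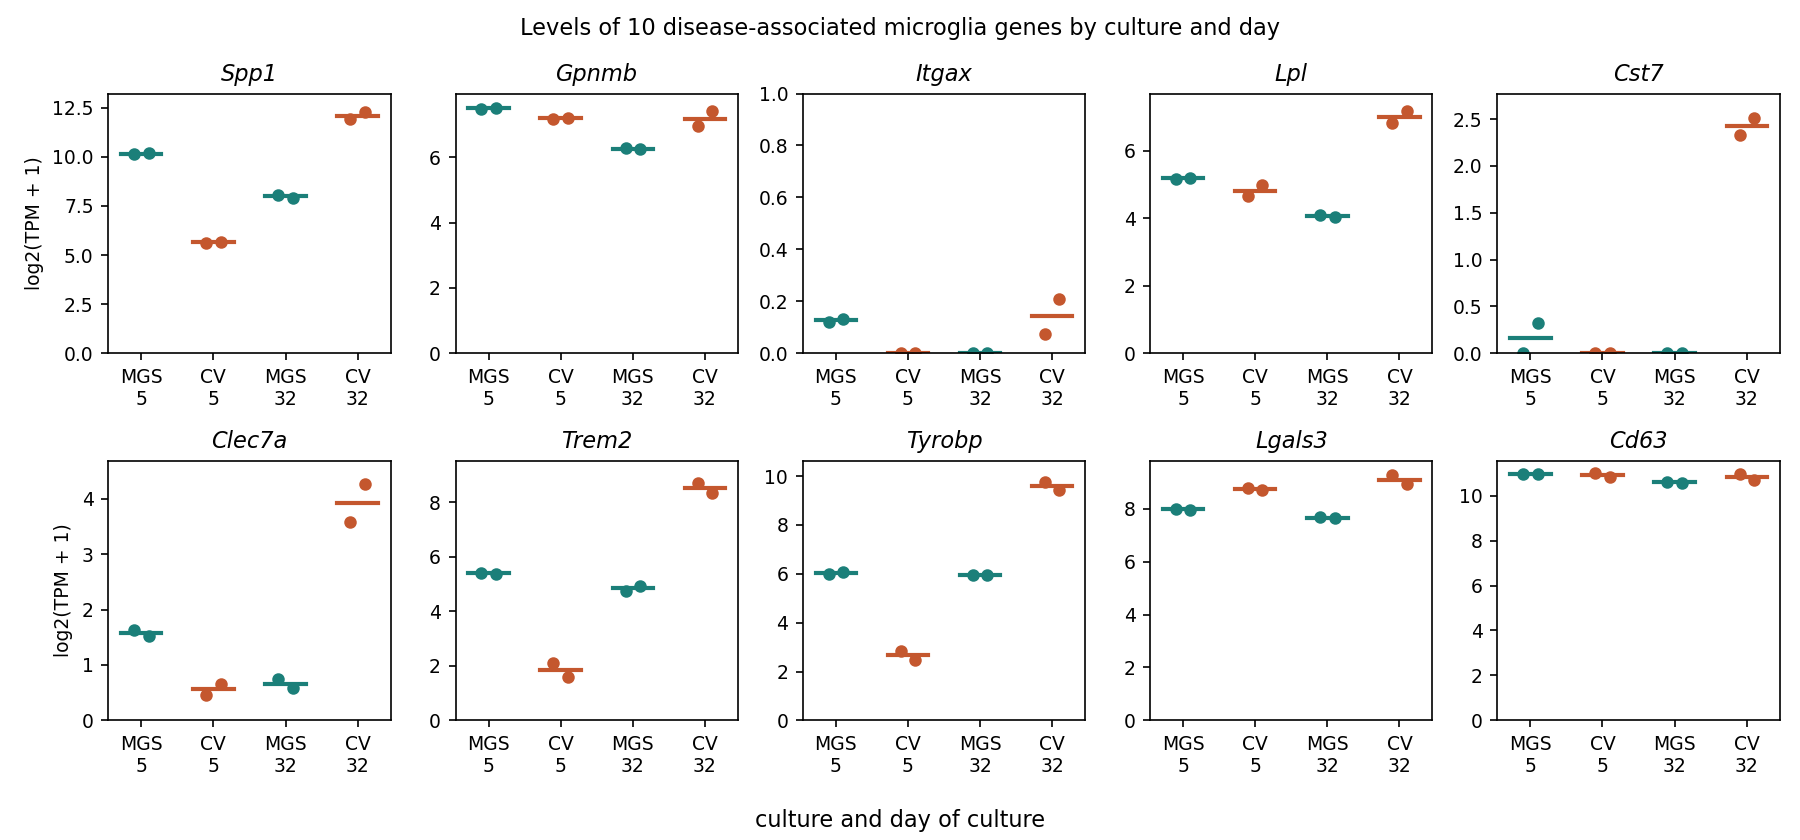
Level of each of the 10 DAM genes as log2(TPM + 1) (vertical axis, own scale for each gene) in MGS (green) and CV (orange) at day 5 and day 32 (horizontal axis); points are the 2 libraries of a group and bars their mean. Spp1, Trem2 and Tyrobp have their lowest libraries in CV at day 5 and their highest in CV at day 32, with both MGS groups between, while Cd63 lies between 1499 and 2022 TPM throughout.

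At day 5, the transcripts of TREM2, of its adaptor and of osteopontin were higher in MGS than in CV. Of the 10 genes, 4 were higher (Spp1, Trem2, Tyrobp and Clec7a) and 1 was lower (Lgals3), where 48.9% of all genes tested were called, 22.5% higher and 26.4% lower. The median difference of the 8 genes above 0 in every library (all but Itgax and Cst7) was 0.69, against -0.14 over all genes. With median-of-ratios scaling, which centres the median gene near no difference, 6 members were higher and 0 lower, beside 28.7% and 24% of all genes. Beside them, 13 of 14 pan-myeloid genes were higher and 0 lower (median 2.51), led by C1qa, C1qb and C1qc, the chains of the complement starter C1q. C1qa had 95.5 ± 2.74 TPM in MGS against 2.89 ± 0.194 in CV (mean ± SD, n = 2). Of 12 homeostatic microglia genes 6 were higher and 1 lower, with 10 tested (median 0.79), and all 6 tested of 8 border macrophage genes were higher (median 2.05). Markers of further cell types were higher in MGS as well: all 8 meningeal fibroblast genes (median 6.39, summed 12024 to 13914 TPM against 353 to 377 in CV), all 6 oligodendrocyte genes (median 4.05, 1306 to 1352 against 7.59 to 9.36 TPM) and 4 of 6 endothelial genes with 1 lower (median 2.17, 211 to 214 against 30.05 to 35.4 TPM). Of the endothelial genes counted, Cldn5 and Pecam1 passed the minimum level only through MGS at day 5. The part of these cell types in the differences of the DAM genes was not tested.

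A list of 32 other DAM genes, chosen with earlier results of these libraries known, had 21 higher and 4 lower at day 5 (median 0.78). The largest differences with a level above 0 in both groups were those of Lyz2, lysozyme, at 625 ± 15.3 against 30.2 ± 0.846 TPM (log2 difference 4.33, adjusted p = 6.02e-07), and of the chemokine Ccl3 and the cathepsin Ctss. Ctss stood at 49.4 ± 0.834 against 5.37 ± 0.908 TPM (2.99, adjusted p = 3.64e-06). Apoc1, an apolipoprotein, was at 37.8 ± 4.33 TPM in MGS and listed at 0 in CV. Among 17 genes of TREM2-DAP12 signalling 7 were higher and 4 lower (median 0.34). The phosphatase gene Ptpn6 (2.65, adjusted p = 1.19e-05), the adaptor gene Lcp2 (2.02, adjusted p = 0.000113) and Vav1 (adjusted p = 0.00016) were higher, and Vav3, which encodes a related exchange factor (-1.64, adjusted p = 0.00182), was lower.

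Partners of the 10 gene products were largely higher in MGS at day 5, 13 of 19, with 4 lower (median 0.76). They included Angptl4, an inhibitor of lipoprotein lipase, at 221 ± 0.239 against 2.64 ± 0.167 TPM (5.93, adjusted p = 6.02e-07), and Lgals3bp, which encodes a binding protein of galectin-3 (3.47, adjusted p = 3.18e-06). Of 18 regulators linked to DAM or to lysosomal genes, 9 were higher and 2 lower (median 0.60), with Spi1 at 8.23 ± 0.871 against 0.823 ± 0.494 TPM (2.36, adjusted p = 8.28e-05). Of 17 genes of lipid handling 7 were higher and 4 lower (median 0.39), with the fatty acid carrier gene Fabp4 (3.78, adjusted p = 9.45e-06) and the cholesterol exporter gene Abcg1 (2.65, adjusted p = 2.31e-05) higher.

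**Figure D2:**
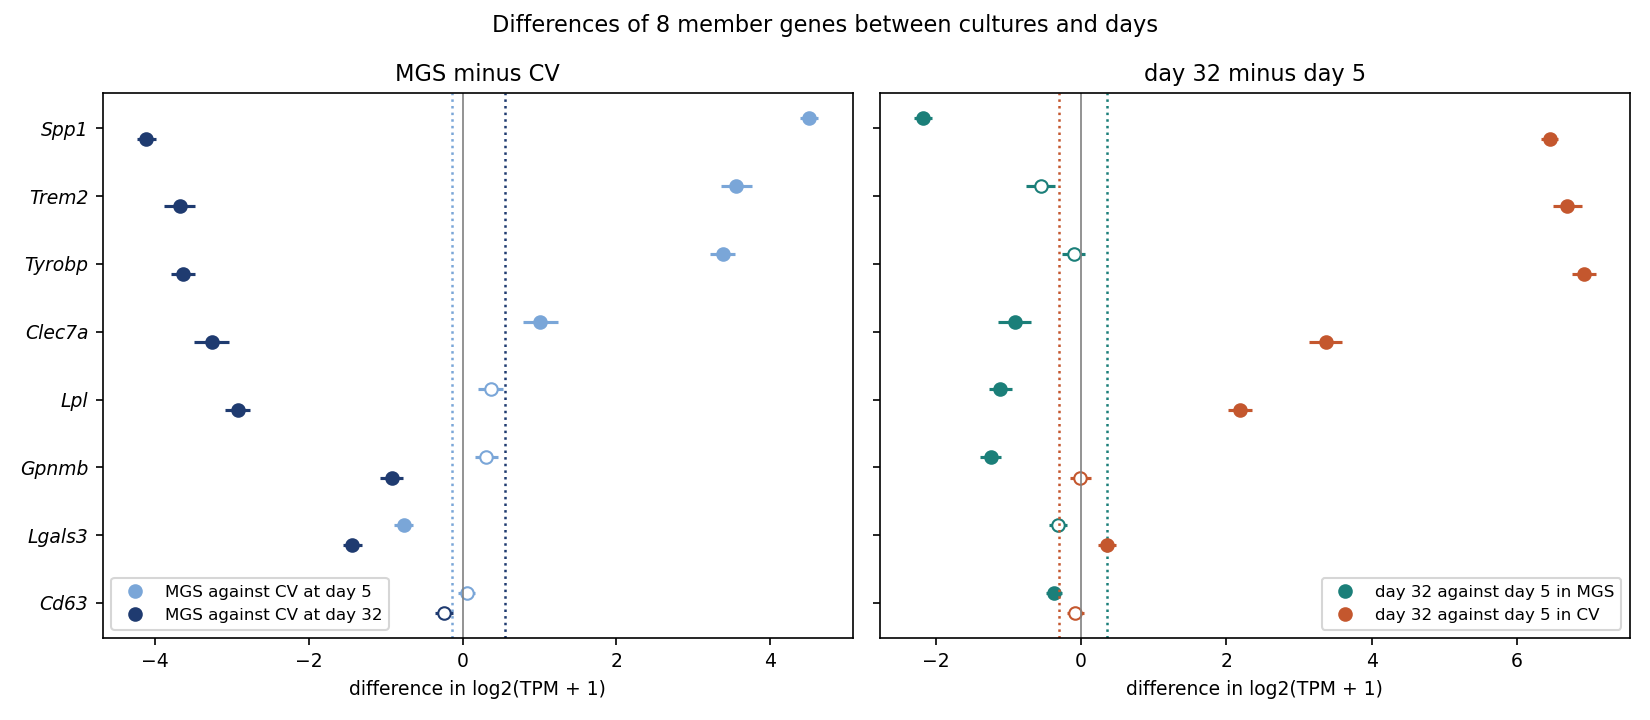
Differences in log2(TPM + 1) (horizontal axis) of 8 DAM genes (vertical axis), MGS minus CV at each day on the left and day 32 minus day 5 in each culture on the right; bars are the SE of the model, filled points are called at an adjusted p under 0.05, and dotted lines mark the median of all genes tested. Spp1, Trem2, Tyrobp and Clec7a lie on opposite sides of 0 at the 2 days, and the changes within CV reach 6.92 where those within MGS lie between -2.17 and -0.10.

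At day 32 the direction had turned. Of the 8 genes above 0 in every library, 7 were lower in MGS than in CV and 0 higher, where 67.6% of all genes tested were called, 14.8% lower and 52.8% higher. Their median difference was -3.10, against 0.56 over all genes. Cd63 was not called, Itgax was not tested, and the call of Cst7 is left out because Cst7 was tested only through its level in CV at day 32. With median-of-ratios scaling all 8 were lower, beside 34.9% and 35.1% of all genes. Under it the median of all genes at day 32 moved from 0.56 to -0.00, and relative to the median of all genes under TPM the differences of the members were larger in size, from -0.80 for Cd63 and -1.48 for Gpnmb to -4.67 for Spp1.

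The myeloid lists were lower in MGS at day 32 as well: 13 of 14 pan-myeloid genes with 0 higher (median -3.10) and 7 of 12 homeostatic genes with 1 higher (median -1.71). Ly86 had 7.68 ± 0.685 TPM in MGS against 206 ± 17.9 in CV, and Aif1, the gene of the microglial protein Iba1, at 7.52 ± 0.333 against 142 ± 25.1. Border macrophage genes were divided, with 3 higher (F13a1, Lyve1 and Mrc1) and 2 lower among the 6 tested. Lyve1 reached 1 TPM only in MGS at day 32, so its call carries no support. Mrc1, the mannose receptor gene, was at 46.1 ± 0.201 TPM in MGS and 20.24 ± 10.02 in CV, and Ms4a7 at 19.2 ± 1.94 against 166 ± 15.5. The markers of fibroblasts (8 of 8, median 4.55) and oligodendrocytes (6 of 6, median 2.44) were higher in MGS at day 32. Of the endothelial genes 3 of 6 were higher and 0 lower (median 0.58). That is near the 52.8% called higher and the median of 0.56 over all genes. The part of these cell types in the differences of the DAM genes was not tested. Siglech, a microglial marker, was listed at 0 in all 8 libraries. Markers of dendritic cells, with Cd209a and Xcr1 at 0 in every library, summed to 9.01 to 31.1 TPM over all libraries, those of other leukocytes to at most 2.57 and those of melanocytes, which also express Gpnmb, to at most 3.29.

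Of the other DAM genes 22 were lower and 4 higher in MGS at day 32 (median -1.03), with Ctss at 50.4 ± 1.94 against 713 ± 58.6 TPM (-3.79, adjusted p = 1.14e-06) and Cd52, a surface glycoprotein gene, at 15.5 ± 1.16 against 341 ± 43.6 (-4.37, adjusted p = 1.19e-05). Of the TREM2-DAP12 signalling genes 12 were lower and 2 higher (median -1.54), the largest being the adaptor gene Lat2 (-3.56, adjusted p = 3.63e-06), Vav1 (-2.85), Card9 (-2.63) and the kinase gene Btk (-2.35). Partners were split, 7 higher and 8 lower (median -0.13): Angptl4 was higher in MGS (2.94, adjusted p = 2.7e-06), and the integrin gene Itgb2 (-2.85, adjusted p = 1.82e-05), the protease inhibitor gene Timp1 (-2.61, adjusted p = 6.21e-06) and Ctsc, the cathepsin that cystatin F inhibits (-1.72, adjusted p = 0.000406), were lower. Regulators were split as well, 6 each way (median 0.12), with Spi1 (-3.48) and Irf8 (-3.15), factors of the myeloid lineage, lower and Bhlhe40 (2.16) and Sall1 (1.86) higher. Sall1, a microglial gene among brain macrophages, was at 27.7 and 34.0 TPM in CV at day 5 too, where the pan-myeloid genes were lowest. Of the lipid handling genes 6 were higher and 7 lower (median -0.25). With median-of-ratios scaling the regulators were 3 higher and 9 lower, the partners 2 and 10 and the lipid handling genes 5 and 11, whereas the pan-myeloid genes were 13 lower and 0 higher as before.

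Within MGS, 5 of the 10 genes fell from day 5 to day 32 (Spp1, Gpnmb, Lpl, Clec7a and Cd63) and 0 rose, where 42.5% of all genes tested were called, 35% higher and 7.53% lower. The count was 3 when any 1 MGS library was left out, Clec7a and Cd63 being the calls lost. The median of the 8 genes above 0 in every library was -0.73, against 0.36 over all genes. With median-of-ratios scaling 7 members were lower and 0 higher, beside 22.7% and 22.8% of all genes. Over the same interval 9 of 14 pan-myeloid genes rose and 0 fell (median 0.71), 6 of 12 homeostatic genes rose and 1 fell (median 1.24), all 6 border macrophage genes tested rose (median 2.09) and 8 of 17 TREM2-DAP12 signalling genes rose with 0 lower (median 0.65). With median-of-ratios scaling these were 5 pan-myeloid, 6 homeostatic, 4 border macrophage and 4 signalling genes higher, with 1 homeostatic gene lower; quantile normalization gave 7 pan-myeloid genes higher and 2 lower. The difference between these counts was not tested. Lyve1, among the border macrophage genes counted, reached 1 TPM only in MGS at day 32.

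Csf1r, the receptor for the growth factor on which microglia depend, went from 7.51 ± 0.0243 TPM to 48.3 ± 1.80 in MGS (2.53, adjusted p = 0.000194), and Cx3cr1, the fractalkine receptor gene, from 3.44 ± 0.263 to 18.3 ± 0.418 (2.12, adjusted p = 0.000361). Tmem119, another homeostatic marker, fell from 47.9 ± 2.80 to 17.6 ± 0.786 (-1.39, adjusted p = 0.00102). The other DAM genes went both ways, 9 higher and 10 lower (median 0.05). The chemokine genes Ccl4, from 10.3 ± 0.985 to 80.4 ± 0.0181 TPM, and Ccl3 rose, as did Ch25h, which encodes a cholesterol hydroxylase, whereas the fatty acid carrier gene Fabp5 fell from 903 ± 153 to 264 ± 7.66 (-1.76, adjusted p = 0.000216). In the same direction as Lpl, the partner gene Angptl4 fell from 221 ± 0.239 to 43.4 ± 0.899 (-2.32, adjusted p = 7.24e-05), and the lipid handling genes Fabp4 (-3.33, adjusted p = 8.83e-05) and Cd36 (-2.43, adjusted p = 0.00117) fell. Gpihbp1, whose product anchors lipoprotein lipase on endothelium, was at 2.30 ± 0.210 TPM at day 5 and listed at 0 at day 32. Over the same days the endothelial marker Cldn5 went from 23.6 ± 0.295 to 0.0831 ± 0.0398 TPM and Pecam1 from 5.87 ± 0.355 to 0.0713 ± 0.000741. Cdh5, at 166 to 168 TPM at day 5, was still at 119 and 135. Cldn5, Pecam1 and Gpihbp1 reached 1 TPM only in MGS at day 5. They passed the minimum level through that group alone, so their calls, though in the counts of their lists, carry no support. Of the 6 endothelial genes 3 were lower and 1 higher, of 8 fibroblast genes 5 lower and 1 higher and of 6 oligodendrocyte genes 3 lower; their part in the falls of Lpl, Angptl4, Fabp4, Cd36 and Gpihbp1 was not tested. Partners were 2 higher and 6 lower (median -0.01), regulators 5 higher and 0 lower (median 0.24), and lipid handling genes 6 higher and 5 lower (median 0.04). The medians of the regulators and of the lipid handling genes turned with median-of-ratios scaling, to -0.08 and -0.39, and that of the other DAM genes to -0.38.

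Within CV, most of the DAM genes rose. Of the 8 genes above 0 in every library, 6 were higher at day 32 than at day 5 and 0 lower, where 53.7% of all genes tested were called, 16% higher and 37.7% lower. Their median was 2.78, against -0.31 over all genes. With median-of-ratios scaling 7 of the 8 were higher and 0 lower, beside 27.3% and 26.8% of all genes. Gpnmb and Cd63 were not called, and of the 6 calls that of Lgals3 depended on the libraries used. All 14 pan-myeloid genes rose (median 6.85), as did 9 of 12 homeostatic genes with 1 lower (median 2.83), 23 of 32 other DAM genes with 3 lower (median 1.78) and 12 of 17 TREM2-DAP12 signalling genes with 0 lower (median 2.03). C1qb went from 3.80 ± 0.639 to 1910 ± 211 TPM (8.64, adjusted p = 6.61e-08), Fcrls, a microglial Fc receptor-like gene, from 0.972 ± 0.432 to 624 ± 25.9 (8.32, adjusted p = 2.38e-07), and Spi1 from 0.823 ± 0.494 to 195 ± 6.41 (6.77, adjusted p = 8.25e-07). Partners were 11 higher and 2 lower (median 0.72), regulators 9 and 2 (median 0.52) and lipid handling genes 7 and 5 (median -0.06; 0.34 with median-of-ratios scaling). All 9 astrocyte markers fell in CV over this interval (median -1.09; with median-of-ratios scaling 6 were called, median -0.69), and the part of this in the rise of the DAM genes was not tested.

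**Figure D3:**
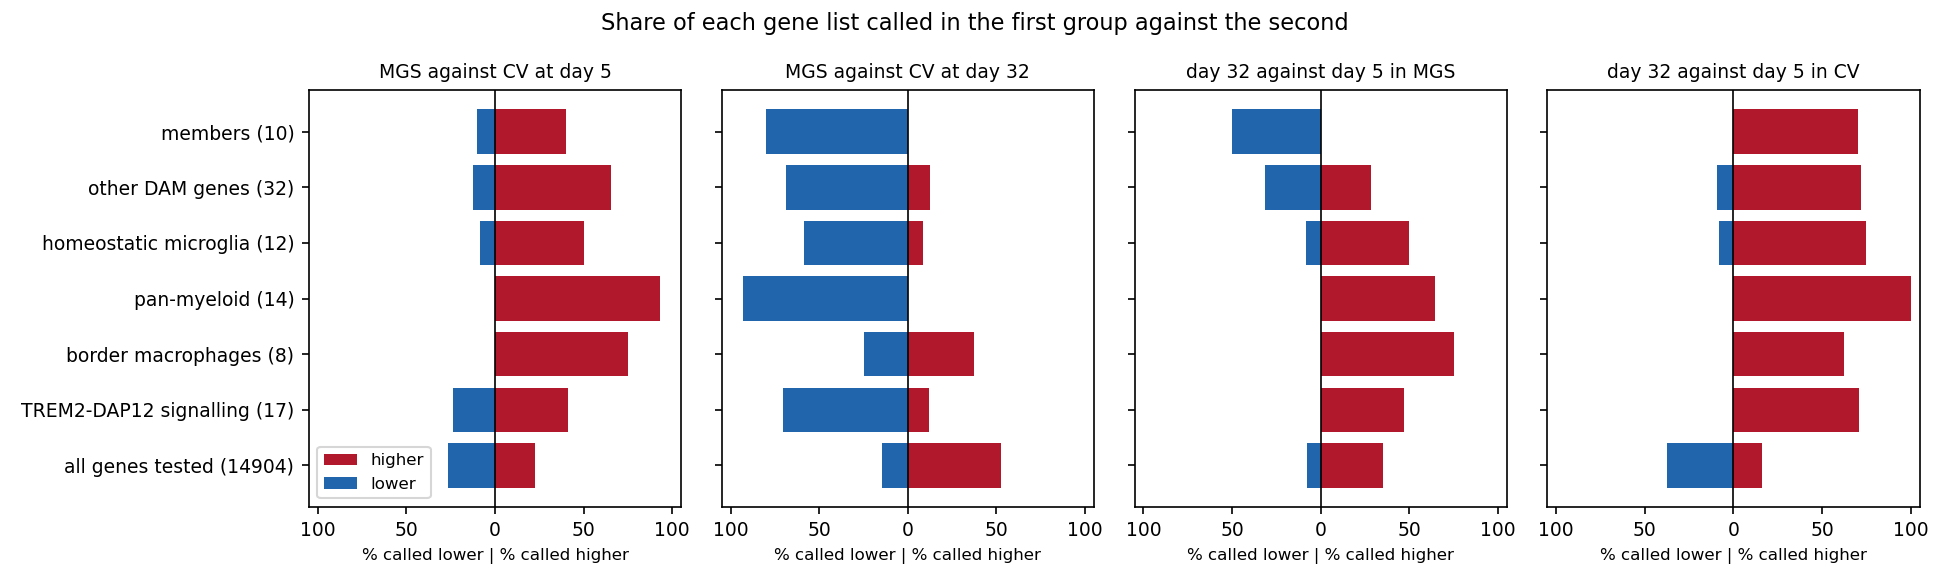
Share of each list called higher (red, to the right) or lower (blue, to the left) in 4 comparisons, in percent of all listed genes, with the number of genes in parentheses and all genes tested as the last row; a gene that was not tested counts as not called. The bar of the members at day 32 holds 8 of 10 genes lower because it includes Cst7, tested only through CV at day 32. Without Cst7 and Itgax 7 of 8 are lower, where 14.8% of all genes tested were. Cst7 is also in the bar within CV, where 6 of 8 are higher without it and Itgax, against 16% of all genes. Within MGS 5 members are called lower and 0 higher, where 7.53% and 35% of all genes were.

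The culture difference itself differed between the days for 7 of the 8 genes above 0 in every library, each in the direction of lower values in MGS at day 32, where 62% of all genes tested were called, 12.3% lower and 49.7% higher. With median-of-ratios scaling all 8 were called lower, beside 31.6% and 28.7% of all genes, and under quantile normalization Cd63 was called higher (0.37, adjusted p = 0.0445). The largest were Spp1, at -8.62 (SE 0.17, adjusted p = 8.51e-07), Trem2, at -7.24 (adjusted p = 7.97e-06), and Tyrobp, at -7.02 (adjusted p = 5.17e-06), and Cd63 was not called (-0.29, adjusted p = 0.151). The call of Lgals3 (-0.67, adjusted p = 0.0135) was lost without MGS day 5 replicate 1 (0.0566) or MGS day 32 replicate 2 (0.0543). These comparisons share libraries and are therefore not independent of each other.

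Set against the pan-myeloid genes of the same library, the DAM genes differed from each other. The level of a gene was expressed as its log2(TPM + 1) minus the mean of log2(TPM + 1) over the 14 pan-myeloid genes, and no test was made of this quantity. Spp1 stood 6.27 and 6.32 above that mean in MGS at day 5, 4.54 and 4.59 in CV at day 5, 3.25 and 3.15 in MGS at day 32, and 4.34 and 4.21 in CV at day 32. It was thus highest relative to the myeloid genes in MGS at day 5 and lowest in MGS at day 32, with the CV groups between. The CV groups were close to each other on this scale, but with a pseudocount of 0.1 they stood at 5.79 at day 5 and 4.30 at day 32. The place of the CV groups between those of MGS holds for the pan-myeloid reference. Relative to the mean of the homeostatic genes Spp1 stood at 7.53 in MGS at day 5, 4.12 in CV at day 5, 4.67 in MGS at day 32 and 7.70 in CV at day 32.

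From day 5 to day 32 in MGS the pan-myeloid mean itself rose by 0.92, and the level relative to it changed by -3.09 for Spp1, -2.16 for Gpnmb, -2.03 for Lpl, -1.83 for Clec7a, -1.47 for Trem2, -1.29 for Cd63, -1.24 for Lgals3 and -1.02 for Tyrobp. For Trem2, Cd63, Lgals3 and Tyrobp most of this is the rise of the mean, their own changes being -0.55, -0.37, -0.32 and -0.10. Itgax and Cst7 were listed at 0 in MGS at day 32, so their values move with the list alone. In CV over the same days the mean rose by 6.74, and Spp1 changed relative to it by -0.29, Trem2 by -0.05 and Tyrobp by 0.18. Gpnmb (-6.75), Cd63 (-6.82) and Lgals3 (-6.38), whose TPM did not follow the myeloid genes, changed far more. Their own changes in log2(TPM + 1) were -0.01, -0.08 and 0.35, so these values mostly restate the rise of the mean. In CV at day 32 Cd63 and Lgals3 still stood above the pan-myeloid mean, and Gpnmb stood at -0.65 and -0.63. The small changes of Spp1, Trem2 and Tyrobp depend on the reference. They were 3.58, 3.82 and 4.05 against the homeostatic genes, and -1.49, -0.86 and -0.82 with a pseudocount of 0.1. The pan-myeloid mean itself differed, MGS minus CV, by 2.78 at day 5 and by -3.04 at day 32. Between the cultures at day 5 the relative difference was 1.73 for Spp1, 0.78 for Trem2 and 0.61 for Tyrobp and negative for Gpnmb, Lpl, Clec7a, Lgals3 and Cd63. The first 3 of these depend on the setting as well. For Spp1, Trem2 and Tyrobp they were 0.68, 0.11 and -0.26 with a pseudocount of 0.1, and 3.40, 2.46 and 2.28 against the homeostatic genes. At day 32 it was -1.07 for Spp1, -0.64 for Trem2, -0.60 for Tyrobp and -0.23 for Clec7a, and above 0 for the other 4 of the 8 genes above 0 in every library, a count that was 2 with the homeostatic genes as the reference. The SD of the relative difference at day 32 was 0.596 for Trem2 and 0.556 for Tyrobp, so neither of these exceeded its SD by much.

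**Figure D4:**
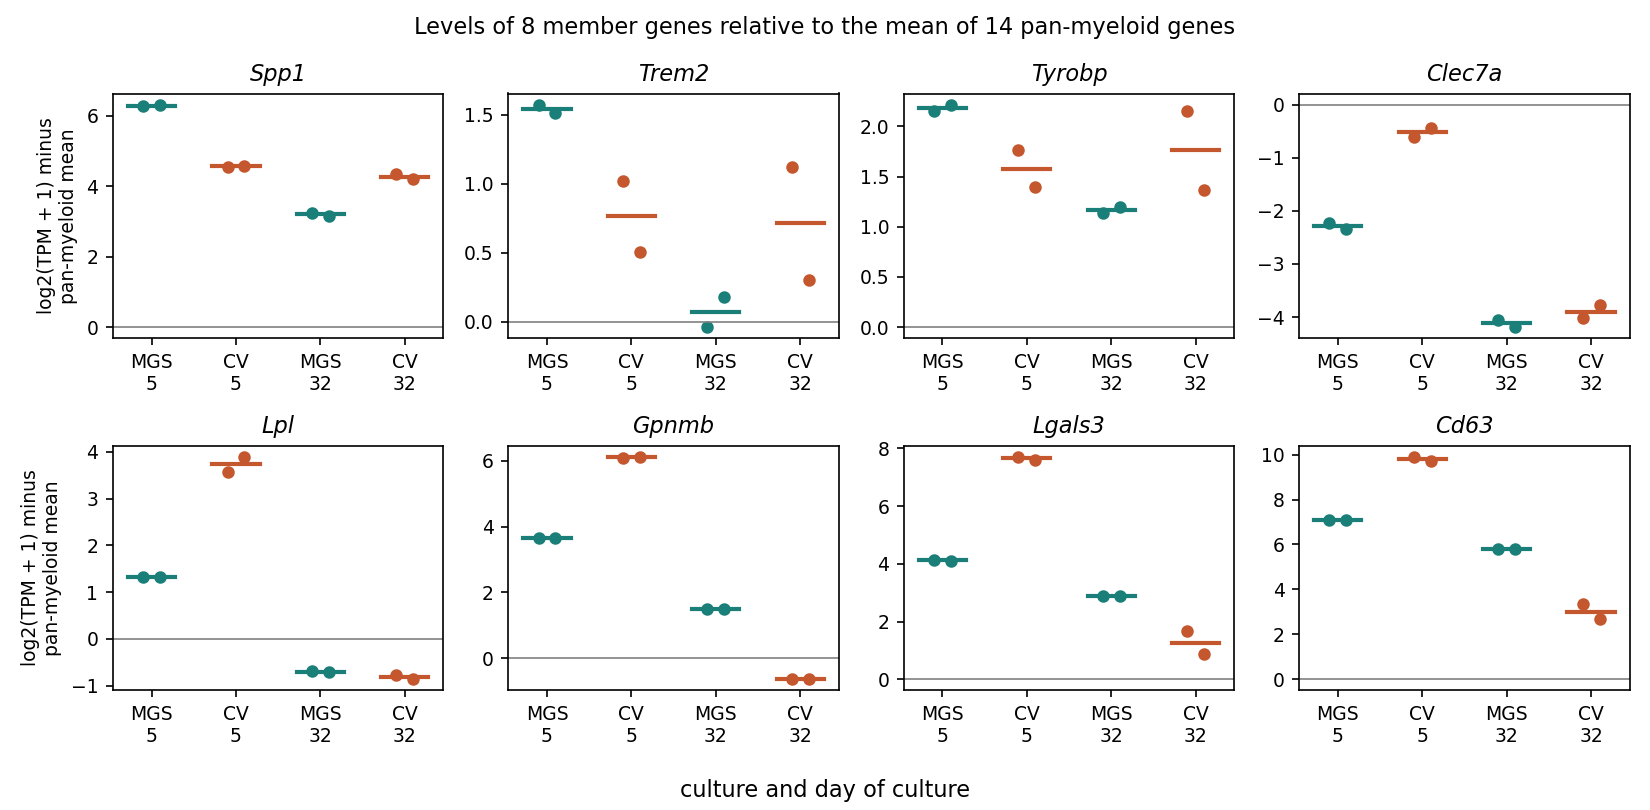
Level of 8 DAM genes relative to the mean of 14 pan-myeloid genes in the same library (vertical axis, difference in log2(TPM + 1), own scale for each gene), by culture (MGS green, CV orange) and day (horizontal axis); points are libraries and bars group means. Spp1 lies at 6.27 and 6.32 in MGS at day 5 and at 3.25 and 3.15 in MGS at day 32, with the CV groups between, while Gpnmb, Lgals3 and Cd63 are highest in CV at day 5 and lowest in CV at day 32. For Gpnmb, Lgals3 and Cd63 that order mostly restates the pan-myeloid mean, which was lowest in CV at day 5 and highest in CV at day 32.

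The patterns of the members over the 8 libraries fell close to different genes. Likeness was measured as the root mean square (RMS) difference of log2(TPM + 1), each gene centred on its own mean, against 13626 other genes. The smallest differences for Trem2 were those of Wfdc17 (0.21) and Ctss (0.37), and for Tyrobp those of Ctss (0.26) and Ifi27l2a (0.30). Trem2 and Tyrobp were themselves the closest pair among the members, at 0.19. Spp1 had no neighbour as close, its nearest being Wfdc17 (0.62) and Ctla2a (0.72).

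Gpnmb was nearest to Rgs16 (0.17). Lgals3 was nearest to Myl12a, a myosin light chain gene (0.086), and Pdcd2 (0.098). Cd63 lay nearest to Atp5g2, a subunit gene of ATP synthase (0.040), and Timm17b (0.048), and Lpl to Ccdc109b (0.24) and Tpm2, a tropomyosin gene (0.28). Clec7a was nearest to Hmga2-ps1 (0.35) and Pram1 (0.36), and Cst7, tested only through CV at day 32, to Sh2d1b1 (0.12) and Klra2 (0.13). All of these genes were picked by their levels in these same libraries, so a pattern shared with the member follows from the choice. Wfdc17, for instance, was at 132 TPM in CV at day 32 and 0.571 in CV at day 5. The nearest genes of Gpnmb, Lgals3 and Cd63 were not myeloid markers of any list used here.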

How the data were processed

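The authors deposited gene abundances of 8 libraries as coverage, FPKM and TPM, per the file headers; TPM was analysed, FPKM served as an alternative and coverage gave the depth. Per the labels' protocols, TRIzol was used for RNA extraction and a directional kit for the libraries. The submitters' processing notes name the tools HISAT2 2.1.0, StringTie 1.3.4d and bcl2fastq, and both hg38 and mm10. Filters, the annotation and the use of strand are not given in the sources used here. TPM keeps no depth and counts could not be recovered, so no counting interval is given.

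The rows of a gene ID were summed in each library. Genes with at least 1 TPM in at least 2 libraries, 14904 of 23420, were taken as log2(TPM + 1), which understates changes of low genes. Some list genes, among them Cldn5, Pecam1, Gpihbp1 and Lyve1, passed this minimum through 1 group only and stay in the list counts. limma 3.58.1 in R 4.3.3 fitted 4 group means to 8 libraries (4 residual degrees of freedom, variance trend), with two-sided tests, Benjamini-Hochberg adjustment over all genes tested and calls at an adjusted p under 0.05. The model holds 1 spread per gene for all 4 groups, although the SD between replicates ran from 0.191 in MGS at day 5 to 0.465 in CV at day 32. A p-value therefore does not measure the spread of the compared groups alone. The fit was tested on simulated data. With 2 libraries against 2 no exact permutation test of a single gene was made. Groups and replicate numbers come from the sample titles.

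The members, lists and tests were chosen with earlier results of these data known. The text names all 10 members, up to 4 called genes of largest change per list and comparison, the 2 nearest genes of each member, and markers listed at 0; a few genes that this rule names are not reported here. Spi1 and Adgre1 were matched through RefSeq synonyms. The alternatives were other pseudocounts, filters, scalings and units, no variance trend, only the groups compared, length and GC correction, a replicate block, the series-wide table, other reference lists and leaving out each library.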

Additional observations from a re-analysis of the deposited data

Results flagged for a closer look

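For 7 of the 8 DAM genes above 0 in every library the culture difference was not the same at the 2 days, where 62% of all genes were called. The test was the interaction of culture and day in limma (Benjamini-Hochberg adjusted p over all genes tested). Spp1 (adjusted p = 8.51e-07), Tyrobp (5.17e-06), Trem2 (7.97e-06) and Clec7a (8.81e-05) were higher in MGS at day 5 and lower at day 32. Lpl (6.9e-05) and Gpnmb (0.00246) were lower in MGS at day 32 and not called at day 5. Cst7 (7.71e-05) was listed at 0 in 5 of the 6 libraries outside CV at day 32. It was tested only through CV at day 32, so its value supports nothing and is not counted. Lgals3 (0.0135) was lower in MGS at both days and more so at day 32.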

How the results depend on the processing

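Leaving out 1 library took the genes called at day 5 to between 4523 and 10086 (7291 with all libraries; the lowest without MGS day 5 replicate 2), those within CV to between 4830 (without CV day 5 replicate 2) and 10676 (7997) and those within MGS to between 2455 and 9732 (6335). With only the groups compared these last were 3483 in CV and 11596 in MGS. The members called within MGS were 3 to 7 with 1 library left out, in place of 5, and 3 without any 1 MGS library. Relative to the myeloid reference, the MGS minus CV difference at day 32 was above 0 for 6 members. With the homeostatic list it was above 0 for 3. Without Itgax and Cst7 these counts were 4 and 2. The other counts of calls, 185 in all, stayed within 1.5 times.

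Of the fold changes of single members, 801 kept direction and call, 25 lost the call, 46 gained one and 23 turned, all of Cd63, Cst7 or Gpnmb; the cause was not tested. Cd63 turned under quantile normalization at day 32 (0.20), at day 5 (-0.17), within MGS (0.13) and in the interaction (0.37). At day 5 it was -0.26 with the length and GC correction, with or without the replicate block, and -0.030 without CV day 5 replicate 2. Within CV it was 0.19 in FPKM, 0.039 with the length and GC correction (with or without the block), 0.32 with median-of-ratios scaling, and from -0.20 to 0.039 with 1 library left out (0.0034 without CV day 5 replicate 1). Cst7 at day 5 was -0.095 with the length and GC correction (with or without the block) and -0.069 under quantile normalization. Gpnmb within CV was 0.26 in FPKM, 0.34 with the length and GC correction (with or without the block), 0.39 with median-of-ratios scaling (adjusted p = 0.0101 by limma), 0.093 under quantile normalization, and from -0.24 to 0.22 with 1 library left out (0.013 without CV day 5 replicate 2).

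Relative to the homeostatic instead of the pan-myeloid list, the difference turned at day 32 for Cst7 (-1.34), Lgals3 (-0.36) and Lpl (-1.85), and within CV for Clec7a (0.50) and Spp1 (3.58). Without the C1q genes Spp1 within CV was 0.15, and with a pseudocount of 0.1 Cst7 at day 32 was -2.37 and Tyrobp at day 5 was -0.26. The fall of Spp1, Gpnmb, Lpl, Clec7a, Trem2, Tyrobp, Lgals3 and Cd63 relative to either list within MGS kept its direction in each of these. Median-of-ratios scaling moved the median of all genes from -0.14 to 0.029 at day 5, from 0.56 to -0.0029 at day 32, from 0.36 to -0.021 within MGS and from -0.31 to 0.013 within CV.

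Replicate numbers were not taken as pairs in the main fit. Same-numbered libraries of different groups deviated with correlations from -0.131 to 0.444 across genes, the highest being that between CV at day 5 and CV at day 32. With the replicate number as a block the genes called were 7894 at day 5, 10440 at day 32, 7209 within MGS and 8529 within CV, and 1 member changed call, Trem2 within MGS (adjusted p = 0.0423 by limma). With the numbers of MGS at day 32 exchanged, chosen after seeing the data, the genes called within MGS were 7365 and the members 6. Depth was recovered as aligned bases only, so low genes such as Itgax and Clec7a have no counting error here.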

Other observations

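The summed TPM of the 10 DAM genes was 3662 and 3737 in MGS at day 5, 2689 and 2456 in CV at day 5, 2214 and 2122 in MGS at day 32, and 8050 and 8392 in CV at day 32. Spp1 held 30.5% and 31.3% of that sum in MGS at day 5 and 11.9% and 11.4% in MGS at day 32.

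Apoe, an apolipoprotein of astrocytes and of activated microglia, stood at 28785 and 28950 TPM in MGS at day 5, 5218 and 3712 in CV at day 5, 14177 and 14478 in MGS at day 32, and 18029 and 13628 in CV at day 32. Its MGS and CV libraries overlapped at day 32, where Spp1 and Trem2 did not. In MGS it changed by -1.01 from day 5 to day 32 (limma, adjusted p = 0.00665), and in CV by 1.83 (adjusted p = 0.000305).

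Axl, a receptor of apoptotic cells among the other DAM genes, was at 14.2 TPM in CV day 32 replicate 1 and 103 in replicate 2, against 52.8 to 81.6 in the other 6 libraries; it was named after its values were seen, and limma called it in none of the 4 comparisons of cultures or days (adjusted p 0.285 to 0.855).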
